A study of Mus musculus with 179 samples.

Results

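The comparison described here concerned gene expression in the ventral tegmental area (VTA) of female mice that had lived through early life stress (ELS). It asked what sub-threshold variable stress in adulthood (STVS), in which stressors of different kinds follow each other, did to that expression. Its members were the 11 VTA libraries whose labels give ELS on postnatal days 10 to 20: 6 from females that met STVS (ELS STVS) and 5 from females with the adult label control (ELS control). They are 11 of 179 samples in the series, of 163 RNA libraries and of 22 female VTA libraries. Labels alone set the groups, but the choice was made with earlier results of these data known. The other 11 female VTA libraries, 5 of standard-reared STVS females and 6 of standard-reared controls, served to compare the response between rearing histories. All were adult C57Bl6/j females, each library held the punch of 1 mouse, and tissue was taken 24 h after behavioural testing, so that every group had also met the tests. The label control names only the adult condition, and both ELS groups share the early stress.

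The VTA is a midbrain nucleus whose dopamine neurons project to the nucleus accumbens (NAc) and the prefrontal cortex (PFC) and carry signals of reward and of motivational value. Local GABA and glutamate neurons and afferents from stress circuits set the firing of these dopamine cells, and corticosterone and stress peptides such as Crh act on them through their receptors. Dopamine neurons make their transmitter with the enzymes Th and Ddc, load it into vesicles with Slc18a2, take it back up with Slc6a3, and keep their identity through factors such as Nr4a2, Pitx3 and Lmx1b.

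Levels are normalised reads, the authors' gene counts divided by 1 factor per library, and whole reads recovered from them came to between 19185904 and 37853389 in ELS STVS libraries and between 29644905 and 35209799 in ELS controls. Mean depth, Slc6a3, Th and the first principal component of the 11 libraries did not differ between groups beyond the spread of the libraries (adjusted p = 0.697 for each of the 4, exact two-sided permutation tests, smallest possible p 0.00433). Xist, the transcript behind X inactivation, lay between 11312.5 and 19022.5 normalised reads (median 16566) in ELS STVS libraries and at 14240.5, 13951, 16465, 16787 and 14767 in ELS controls. The shared protocol text speaks of males, but the 11 labels say female and all 11 libraries held Xist. The helicase gene Ddx3y of the Y chromosome lay between 0 and 1.72 normalised reads (median 0.519) in ELS STVS libraries and at 29.2, 0.86, 0, 0 and 2.75 in ELS controls, and the library labelled ELS control 1 stood above the other 10. That library also held 1338 normalised reads of Slc17a7, the vesicular glutamate transporter of cortical neurons, against 142 to 249 normalised reads (median 175) in ELS STVS libraries and 121 to 292 in the other ELS controls. The counts below were therefore also computed without it and without standard control 3 and standard STVS 3, which stood apart by Ddx3y or Xist, a choice made after the data were seen.

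The punches held transcripts of dopamine neurons and, to varying extents, of neighbouring nuclei. Slc6a3 lay between 23226.5 and 41981 normalised reads (median 34830.2) in ELS STVS libraries, against 39333.5, 35993, 13436, 23675 and 38559.8 in ELS controls. ELS control 3 was the lowest of the 11 and the ranges overlapped, while Slc6a3 did not exceed 30.0 normalised reads in the 11 ELS libraries of NAc or 5.04 in those of PFC. Tph2, the enzyme of serotonin synthesis in the neighbouring raphe, lay between 1668 and 7516 normalised reads (median 3335) in ELS STVS libraries, against 1375, 1899, 2188, 8279 and 2089 in ELS controls, with ELS control 4 highest of all. Ucn, the urocortin peptide of the Edinger-Westphal nucleus beside the midline, named here after its values were seen, lay between 22.3 and 757 normalised reads (median 244) in ELS STVS libraries, against 1011, 33.3, 25.8, 4.91 and 548 in ELS controls. Both groups therefore held libraries with high and with low Ucn, and in bulk punches fewer cells of a type and less RNA per cell cannot be told apart. The first principal component carried 40.4% of the variance among the 11 libraries, with Ucn and Cartpt among the leading genes of 1 end and Nkx2-1, Chrna2, Pax7 and Slc17a8 among those of the other. ELS STVS 1 (20.4), ELS control 1 (17.1) and ELS control 2 (16.8) lay at the end of Ucn. ELS STVS 2 (-16.4), ELS STVS 5 (-15.8), ELS control 4 (-12.6) and ELS control 3 (-10.1) lay at the other. The order did not follow Ucn alone. ELS control 2 held only 33.3 normalised reads of Ucn and 332 of Cartpt. ELS control 5, with 548 of Ucn, lay between the ends (2.02), as did ELS STVS 4 (-1.15), a library high in Cartpt.

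**Figure D1:**
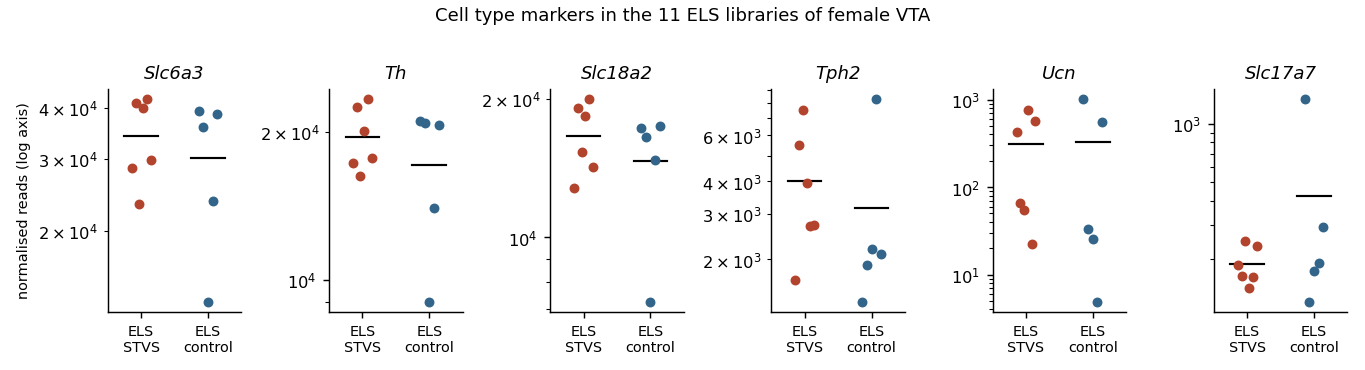
Normalised reads (log axis) of 6 cell type markers in the 6 ELS STVS libraries (left, red) and the 5 ELS control libraries (right, blue) of female VTA, with 1 point a library and a line at the mean. The dopamine genes Slc6a3, Th and Slc18a2 overlap between groups with ELS control 3 lowest, Ucn runs from 4.91 to 1011 normalised reads over both groups, and Slc17a7 is highest in ELS control 1.

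No gene of the VTA passed the test for STVS after ELS. Of the 14000 genes of highest mean, 0 passed an adjusted p of 0.05 in ELS STVS against ELS control (0.0%, limma with Benjamini-Hochberg adjustment, lowest adjusted p = 0.9995), and edgeR's quasi-likelihood test and DESeq2 on the recovered reads also called 0. At an unadjusted p under 0.05 there were 187 genes (1.34%), 72 higher (0.514%) and 115 lower (0.821%), where uniform p-values would give 700.0. edgeR placed 193 genes past the same mark and DESeq2 163. The split of directions turned with the tool, with 38.5% of these genes higher by limma, 58.5% by edgeR and 57.7% by DESeq2. The groups did not overlap for 8 genes that were higher in every ELS STVS library (0.0571%) and for 10 that were lower in every one (0.0714%).

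The absence of calls went with narrow intervals for most genes. The median absolute log2 difference was 0.040 with a median standard error of 0.064, and the median gene's 95% interval reached 0.13 to either side of its estimate. For 13417 genes (95.8%) the 95% interval lay within a 1.5-fold change in either direction, and for 13872 (99.1%) within a 2-fold change. The 128 genes whose interval reached past 2-fold include Ucn, with a log2 difference of 1.01 ± 1.43 (SE). The number of small p-values depended on single libraries. Without ELS STVS 1 the count at an unadjusted p under 0.05 was 647, and without ELS control 3 it was 282, with 0 past the adjusted threshold in both. Without the 3 libraries that stood apart it was 167, again with 0 past the adjusted threshold.

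**Figure D2:**
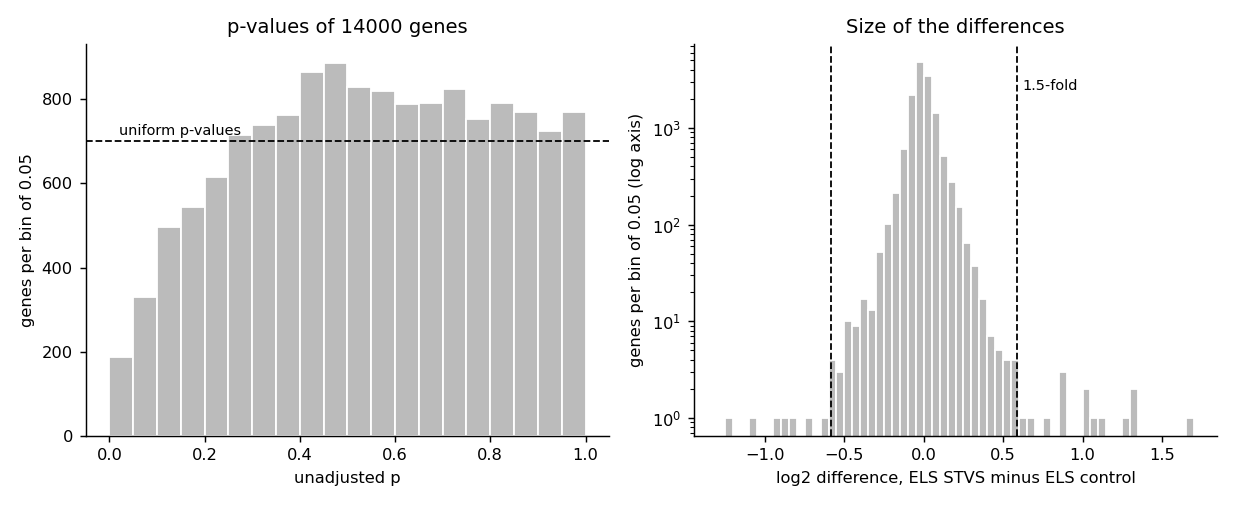
Left, genes per bin of 0.05 of the unadjusted limma p for ELS STVS against ELS control, with a dashed line at the 700.0 genes per bin that uniform p-values give; the first bin holds 187 genes. Right, genes per bin of 0.05 of the log2 difference (log axis), with dashed lines at a 1.5-fold change in either direction; the differences run from -1.23 to 1.68.

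The 12 lower genes and 11 of the 12 higher genes of smallest p are described, the leading ones with their library values; none passed the adjusted threshold, and the unadjusted p chose them, so it is no support. All 24 kept their sign under each of the 21 or 22 alternative settings, and 17 kept an unadjusted p under 0.05 in every one. The alternatives reuse the libraries that chose these genes, so that stability is no separate support. None of the 24 was a member of the gene lists described below. In 7 of them the 2 groups did not overlap, 2 higher and 5 lower in ELS STVS, beside 8 higher (0.0571%) and 10 lower (0.0714%) of all 14000. Choosing genes by small p favours groups without overlap, so this count and the cases below are description only.

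Among the lower ones, Bak1 (ENSMUSG00000057789.9), a pore-forming member of the BCL family that permeabilises mitochondria in apoptosis, had the smallest p of all. It lay between 142 and 185 normalised reads (median 168) in ELS STVS libraries, against 217, 205, 190.4, 213 and 189 in ELS controls, a log2 difference of -0.28 ± 0.065 (SE; limma with adjusted p = 0.9995). Every ELS STVS library lay under every ELS control. B3galt4, a galactosyltransferase of ganglioside synthesis, lay between 104 and 115 normalised reads (median 106) in ELS STVS libraries, against 128, 119.7, 125, 136 and 130.3 in ELS controls (log2 difference -0.23 ± 0.072). Tlr3, the endosomal receptor for double-stranded RNA, lay between 405 and 445 normalised reads (median 434) in ELS STVS libraries, against 478, 508, 524, 497 and 467 in ELS controls (log2 difference -0.20 ± 0.066). Sfrp5, a secreted antagonist of Wnt ligands, lay between 607 and 759 normalised reads (median 711) in ELS STVS libraries, against 849.7, 784, 801, 772 and 818 in ELS controls (log2 difference -0.23 ± 0.075). The groups did not overlap in any of these 3 genes. The zinc-finger gene Zfp61 was the last of the 5 without overlap, between 265 and 291 normalised reads (median 281) in ELS STVS libraries, against 313, 298, 328, 299.8 and 306 in ELS controls.

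Tmem216, a protein of the ciliary transition zone, lay between 175 and 204 normalised reads (median 183) in ELS STVS libraries, against 203, 192, 229.5, 221 and 230.4 in ELS controls (log2 difference -0.22 ± 0.064). Its highest ELS STVS library overlapped the 2 lowest ELS controls. The remaining 6 lower genes were Jkamp, a membrane protein that binds the kinase JNK (-0.11), Rad1, part of the DNA damage checkpoint clamp (-0.17), Ccdc89 (-0.39), Ptgs1, a cyclooxygenase of prostaglandin synthesis (-0.19), Slc10a3 (-0.27) and the F-box gene Fbxo47 (-0.40), the values being log2 differences with overlapping groups.

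Among the higher ones, Tap1 (ENSMUSG00000037321.13), a subunit of the transporter that feeds peptides to MHC class I molecules, had the smallest p. It lay between 123 and 162 normalised reads (median 129.8) in ELS STVS libraries, against 107, 91.5, 110.3, 112 and 121 in ELS controls, a log2 difference of 0.31 ± 0.084 (SE; limma with adjusted p = 0.9995). All 6 ELS STVS libraries lay above all 5 ELS controls. Arid3a, a DNA-binding factor, lay between 197 and 209 normalised reads (median 204) in ELS STVS libraries, against 169, 156, 192, 187 and 179 in ELS controls, and was the other higher gene without overlap. The ciliogenesis gene Intu lay between 282 and 349 normalised reads (median 334) in ELS STVS libraries, against 289, 263, 281, 313 and 281 in ELS controls (log2 difference 0.18 ± 0.066). Kdm6b, a histone demethylase that removes a repressive methyl mark, lay between 849.7 and 1053 normalised reads (median 964) in ELS STVS libraries, against 832, 782, 907, 952 and 839.8 in ELS controls (log2 difference 0.15 ± 0.057). In Intu and Kdm6b the groups overlapped, and Kdm6b lost its unadjusted p under 1 of 22 alternatives.

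Ybx2, an RNA-binding protein best known from germ cells, had the largest log2 difference of the 24, 0.46 ± 0.16, at low levels: between 40.03 and 62.7 normalised reads (median 58.8) in ELS STVS libraries, against 33.7, 29.1, 44.5, 46.2 and 47.7 in ELS controls, with 1 ELS STVS library among the controls. Pfkfb4, a regulator of glycolysis, lay between 466 and 549 normalised reads (median 505) in ELS STVS libraries, against 400.3, 434, 483, 474 and 479 in ELS controls (log2 difference 0.15 ± 0.054). A further 5 higher genes, all with overlapping groups, were Sgcd, a sarcoglycan of the dystrophin complex (0.40), Adck5 (0.20), the monocarboxylate transporter family member Slc16a9 (0.18), Tnip2, an inhibitor of NF-kappaB signalling (0.15), and Fbxo5, an inhibitor of the anaphase-promoting complex (0.28). In RefSeq's annotation of GRCm38.p6, Bak1 (chr17:27019812-27028627), B3galt4 (chr17:33949912-33951488) and Tap1 (chr17:34187556-34197225) all lie on chromosome 17. The other named genes and all tested genes were not counted by chromosome, so the shared chromosome is description only. The positions are whole-gene spans, and because the kit was not strand-specific, reads of antisense transcripts within them cannot be told apart from the genes' own.

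**Figure D3:**
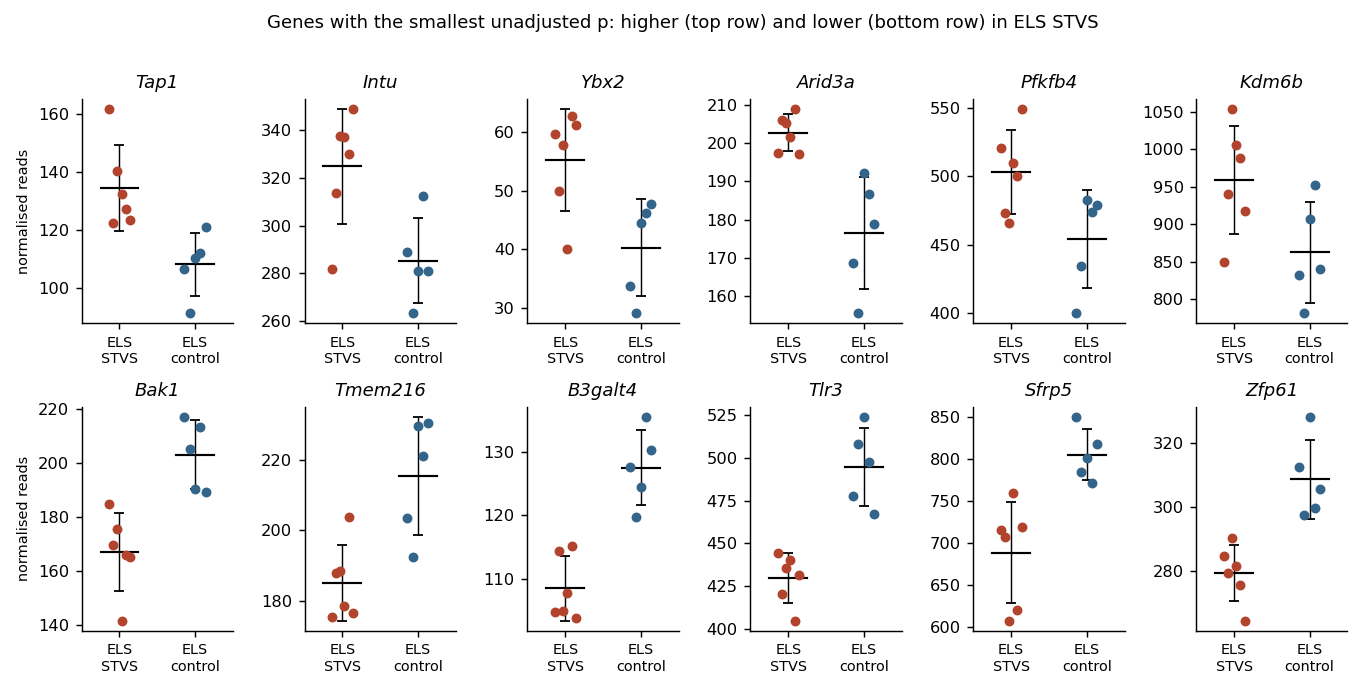
Normalised reads of 6 of the 12 higher genes (top row) and 6 of the 12 lower genes (bottom row) in ELS STVS libraries (left, red) and ELS control libraries (right, blue), with 1 point a library, a bar at the mean and whiskers of 1 SD; the vertical axes do not start at 0. Tap1 and Arid3a do not overlap in the top row, and in the bottom row only Tmem216 overlaps.

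Lists of genes fitting the region and the stress, chosen with earlier results of these data known, held 524 tested genes in 37 groups. Of these, 218 lay higher and 306 lower in ELS STVS, beside 5937 higher and 8063 lower of all 14000 (median log2 difference -0.010). None passed the adjusted threshold, and 5 passed an unadjusted p of 0.05 (0.954%, beside 1.34% of all genes): Kmt2e was higher and Nfkbia, Npy1r, Gabrb2 and Nr1d2 were lower. For 417 of the 524 (79.6%) the 95% interval lay within a 1.5-fold change. Several neuron lists were less tightly measured. The interval lay within 1.5-fold for 7 of 13 dopamine synthesis and transport genes, 6 of 13 dopamine neuron factors and 5 of 19 dopamine subset markers. It did so for 3 of 9 nicotinic subunits, 1 of 9 glutamate neuron markers and 1 of 7 serotonin list members. In no list did any member separate the 2 groups of libraries, beside 8 higher (0.0571%) and 10 lower (0.0714%) of all 14000. At shares so small, finding none among 524 genes is no result about the lists.

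Dopamine genes did not pass the test in any of their lists. Of the 13 genes that make, package, take up and break down dopamine, 9 lay higher and 4 lower in ELS STVS, with a median log2 difference of 0.067. Th lay between 16289 and 23312 normalised reads (median 18911.5) in ELS STVS libraries, against 20998, 20886, 9034, 14002 and 20645 in ELS controls, a log2 difference of 0.25 ± 0.33 (SE, 95% interval -0.45 to 0.95). The vesicular transporter Slc18a2 lay between 12822 and 19967 normalised reads (median 16858) in ELS STVS libraries, against 17324, 16524, 7257, 14753 and 17424 in ELS controls, a log2 difference of 0.23 ± 0.29. ELS control 3 was lowest in Th, Slc18a2 and Slc6a3 alike, and the other libraries of the 2 groups overlapped in all 3. Without ELS control 3 the median of the list was 0.0022, beside its range of 0.0022 to 0.15 over all alternatives.

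All 13 transcription factors of midbrain dopamine neurons lay higher in ELS STVS, with a median log2 difference of 0.17 that ran from -0.013 to 0.23 over the alternatives. Nr4a2, a nuclear receptor that maintains the dopamine phenotype, lay between 1813 and 2936 normalised reads (median 2617) in ELS STVS libraries, against 2535, 2449, 1595, 1878 and 2731 in ELS controls, a log2 difference of 0.19 ± 0.29. The homeobox factor En1 differed by 0.23 ± 0.18, Ebf3 by 0.0056 ± 0.23 and Satb1 by 0.039 ± 0.12, each with groups that overlapped. Of 19 genes that mark subsets of dopamine neurons, 13 lay higher and 6 lower, with a median of 0.16 and a median of -0.0023 without ELS control 3. Among them were the glial-derived growth factor receptor Ret (0.19 ± 0.26) and Aldh1a1, a marker of ventral dopamine neurons (0.17 ± 0.21). Without ELS control 3, the library lowest in Slc6a3 and Th, the median of the 13 transcription factors was 0.041. In standard-reared females the list medians of STVS minus control also lay above 0. They were 0.18 for synthesis and transport genes, 0.27 for the factors and 0.28 for the subset markers, beside 0.0033 over all genes tested. List medians were not tested between rearing histories.

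Dopamine receptors and the G protein machinery behind the autoreceptor were measured more tightly. Of 10 tested members, 5 lay higher and 5 lower, with a median of 0.0010, and 9 had a 95% interval within 1.5-fold. The receptor genes Drd3, Drd4 and Drd5 were not among the genes tested. The members' log2 differences ran from -0.21 for Rgs4 to 0.18 for the receptor gene Drd2. Log2 differences were -0.013 ± 0.039 for Gnao1, -0.0042 ± 0.049 for Gnai2, -0.0034 ± 0.062 for Gnai1, which encode inhibitory G protein subunits, and 0.0062 ± 0.049 for the adenylyl cyclase Adcy5. All 9 nicotinic receptor subunits lay higher in ELS STVS, with a median of 0.22 that ran from 0.020, without ELS control 3, to 0.32 over the alternatives. Chrna6, a subunit enriched in dopamine neurons, lay between 4371 and 6798 normalised reads (median 5454) in ELS STVS libraries, against 6031, 5821, 2549.8, 3991 and 6028 in ELS controls, a log2 difference of 0.22 ± 0.35. Its lowest library was again ELS control 3, whereas the broadly expressed Chrnb2 differed by 0.014 ± 0.060. In standard-reared females the median of the 9 subunits, STVS minus control, was 0.45.

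Markers of the other neurons of the punch also fell short of the test. GABA neuron markers lay higher in 12 of 15 (median 0.063, but -0.0057 without ELS control 3). Gad2, a GABA-synthesising enzyme, lay between 12931 and 15917 normalised reads (median 13758) in ELS STVS libraries, against 13620.5, 14326, 10396, 16198 and 14216 in ELS controls, a log2 difference of 0.054 ± 0.10. Gad1, its companion enzyme, differed by 0.0050 ± 0.14 and Calb2 by 0.10 ± 0.19, and the groups overlapped in all 3 genes. Glutamate neuron markers lay lower in 7 of 9 (median -0.13, -0.18 to -0.085 over the alternatives). Slc17a6, the vesicular transporter of subcortical glutamate neurons, lay between 5222 and 11104 normalised reads (median 8189) in ELS STVS libraries, against 9959.9, 9879, 11776, 6674 and 8432 in ELS controls, a log2 difference of -0.21 ± 0.22, with the groups overlapping.

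Markers of neighbouring nuclei varied between libraries of both groups. The list of serotonin markers, which also holds Ucn of the Edinger-Westphal nucleus, lay higher in all 7 members, with a median of 0.42 that ran from 0.21 to 0.61 over the alternatives. Without Ucn, its member of largest difference, the other 6 had a median of 0.33. The summed level of all 7 members, Ucn included, was 4418 to 14150.1 normalised reads in ELS STVS libraries and 4334 to 15740.0 in ELS controls, so the ranges overlapped. The serotonin transporter Slc6a4 differed by 0.42 ± 0.53 and the autoreceptor Htr1a by 0.24 ± 0.27, errors far wider than those of glial or housekeeping genes. Mammillary and subthalamic markers lay lower in 8 of 11 (median -0.065), with sums of 4350.3 to 7345 in ELS STVS libraries and 4968 to 8111 in ELS controls. Red nucleus and oculomotor markers lay lower in 5 of 7 (median -0.041), and their median ran from -0.28 to 0.075 over the alternatives. The choroid plexus gene Ttr lay between 103 and 1057 normalised reads (median 175) in ELS STVS libraries, against 437, 490.0, 124, 521 and 124 in ELS controls, with ELS STVS 2 highest.

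Stress hormone targets gave the only list member with an unadjusted p under 0.05 in every alternative. Of 20 genes induced by corticosterone, 8 lay higher and 12 lower, with a median of -0.044. Nfkbia, the inhibitor that holds NF-kappaB in the cytoplasm and a target of the glucocorticoid receptor, lay between 317 and 409 normalised reads (median 329.6) in ELS STVS libraries, against 408, 413, 474, 483 and 349.7 in ELS controls. Its log2 difference was -0.28 ± 0.10 (SE; limma with adjusted p = 0.9995, 95% interval -0.49 to -0.065), and the highest ELS STVS library overlapped the 2 lowest ELS controls. Tsc22d3, the glucocorticoid-induced leucine zipper, lay between 2834 and 4157 normalised reads (median 3175) in ELS STVS libraries, against 3778, 4063, 3438, 3484 and 3086 in ELS controls, a log2 difference of -0.13 ± 0.094. The metallothionein Mt1 differed by 0.0044 ± 0.069, Fam107a by -0.18 ± 0.15 and the factor Klf9 by -0.035 ± 0.051. For 19 of the 20 targets the 95% interval lay within 1.5-fold.

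The receptors that read stress hormones and peptides lay higher in 7 and lower in 12 of 19 members (median -0.017). The glucocorticoid receptor gene Nr3c1 lay between 2392 and 2654 normalised reads (median 2592) in ELS STVS libraries, against 2598, 2619, 2692, 2900.5 and 2721 in ELS controls, a log2 difference of -0.075 ± 0.044 with an interval of -0.17 to 0.016. The mineralocorticoid receptor gene Nr3c2 differed by -0.092 ± 0.083, and the PACAP receptor gene Adcyap1r1 by 0.0060 ± 0.062. Npy1r, a receptor of neuropeptide Y, lay between 208 and 265 normalised reads (median 226) in ELS STVS libraries, against 283, 282, 297, 247 and 226 in ELS controls, a log2 difference of -0.20 ± 0.092 (SE; limma with adjusted p = 0.9995), and its place under an unadjusted 0.05 was lost in 10 of 22 alternatives. In both Nr3c1 and Npy1r, 3 of the 6 ELS STVS libraries lay under all 5 ELS controls.

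Opioid genes were even, 4 higher and 4 lower of 8 (median -0.0018). The enkephalin precursor Penk lay between 1178 and 2683 normalised reads (median 1720.0) in ELS STVS libraries, against 1307, 1328, 1483, 3017 and 1708 in ELS controls, with ELS control 4 highest, and the kappa opioid receptor gene Oprk1 differed by 0.23 ± 0.22. Neuropeptide precursors lay higher in 11 of 18 (median 0.076), with log2 differences of 0.081 ± 0.13 for the granin Scg2 and 0.070 ± 0.094 for Vgf. Sex steroid genes were even, 4 and 4 of 8, with 0.015 ± 0.064 for the progesterone receptor gene Pgr.

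Immediate-early genes, which neurons switch on within minutes to hours of activity, lay higher in 12 and lower in 8 of 20 (median 0.052). Jun lay between 1111 and 1284 normalised reads (median 1142) in ELS STVS libraries, against 1136, 1198, 1082, 1193 and 1053 in ELS controls, a log2 difference of 0.034 ± 0.048. Arc, a regulator of synaptic AMPA receptors, lay between 685 and 1066 normalised reads (median 783) in ELS STVS libraries, against 875, 943, 876, 912 and 835 in ELS controls, a log2 difference of -0.11 ± 0.094. In both genes the groups overlapped, and without ELS control 5 the median of the list was -0.070.

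Receptors and channels for fast signalling had no member past the adjusted threshold. Glutamate receptors lay higher in 14 of 22 (median 0.025), and the AMPA subunits Gria1 and Gria2 differed by 0.017 ± 0.11 and 0.062 ± 0.10. GABA receptors lay lower in 11 of 15 (median -0.0074), and the 95% interval of every member lay within 1.5-fold. Gabrb2, a beta subunit of the GABA-A receptor, lay between 4495 and 5025 normalised reads (median 4768) in ELS STVS libraries, against 5758, 5740.4, 5028, 4811 and 5365 in ELS controls, a log2 difference of -0.16 ± 0.074 (SE; limma with adjusted p = 0.9995), and its place under an unadjusted 0.05 was lost in 11 of 22 alternatives. A single ELS control, the lowest, lay within the range of the ELS STVS libraries. Ion channels that set firing lay higher in 18 of 29 (median 0.022), with a log2 difference of -0.16 ± 0.12 for the sodium channel Scn1a. Neurotrophic genes lay higher in 8 of 14 (median 0.068, but 0.00094 without ELS control 3), and Ntrk2, the receptor of BDNF, differed by -0.018 ± 0.049.

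Genes tied to methylation of histone H3 lysine 4 lay higher in 11 of 19, with a median of 0.012 and all intervals within 1.5-fold. Kmt2e, a member of the MLL family listed under its older symbol Mll5, lay between 2823 and 3352 normalised reads (median 3169.6) in ELS STVS libraries, against 2912, 2786, 3051, 3123 and 2943 in ELS controls, a log2 difference of 0.088 ± 0.040 (SE; limma with adjusted p = 0.9995), and its place under an unadjusted 0.05 was lost in 9 of 22 alternatives. The groups overlapped, and the methyltransferases Kmt2a, Kmt2b and Kmt2c differed by 0.063 ± 0.068, 0.079 ± 0.057 and -0.0062 ± 0.066. Clock genes were even, 9 higher and 8 lower of 17 (median 0.0013). Nr1d2, the clock repressor REV-ERB beta, lay between 4125 and 4359 normalised reads (median 4223) in ELS STVS libraries, against 4486, 4648, 4628, 4453 and 4339.5 in ELS controls, a log2 difference of -0.092 ± 0.042 (SE; limma with adjusted p = 0.9995), and its place under an unadjusted 0.05 was lost in 11 of 22 alternatives. Again the lowest ELS control alone lay within the range of the ELS STVS libraries. Interferon-induced genes lay higher in 9 of 16 (median 0.028), with -0.011 ± 0.055 for the class I light chain B2m and 0.081 ± 0.048 for Stat2.

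Glial, vascular and housekeeping lists lay slightly lower in ELS STVS, with no member past even the unadjusted threshold. All 18 myelin genes lay lower (median -0.077, -0.14 to -0.040 over the alternatives). Mbp, a structural protein of myelin, lay between 166092 and 250921 normalised reads (median 187884) in ELS STVS libraries, against 219983, 233469, 189244, 193627 and 194981 in ELS controls, a log2 difference of -0.079 ± 0.13, and the groups overlapped. Summed myelin reads were 467737 to 668666 in ELS STVS libraries and 507007 to 653560.0 in ELS controls. Oligodendrocyte precursor genes lay lower in 7 of 11 (median -0.040), astrocyte genes in 11 of 14 (-0.053), microglial genes in 11 of 15 (-0.026) and endothelial and mural genes in 13 of 15 (-0.080). The glutamate transporter Slc1a2 of astrocytes differed by -0.041 ± 0.044, and the microglial genes Csf1r and Cx3cr1 by -0.014 ± 0.048 and -0.028 ± 0.048.

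Respiratory chain genes lay lower in all 21 members (median -0.058), endoplasmic reticulum chaperones in all 16 (-0.030), heat shock genes in 14 of 15 (-0.039) and ribosomal protein genes in 19 of 21 (-0.029). Every 95% interval in these 4 lists lay within 1.5-fold. Matrix genes lay lower in 11 of 13 (-0.067) and axon guidance genes in 15 of 29 (-0.0038). Blood genes (0.093), choroid plexus and ependyma genes (-0.11) and meningeal genes (-0.068) had medians that changed sign under at least 1 alternative. Over all 37 lists, 17 medians kept their sign under every alternative and 20 did not.

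**Figure D4:**
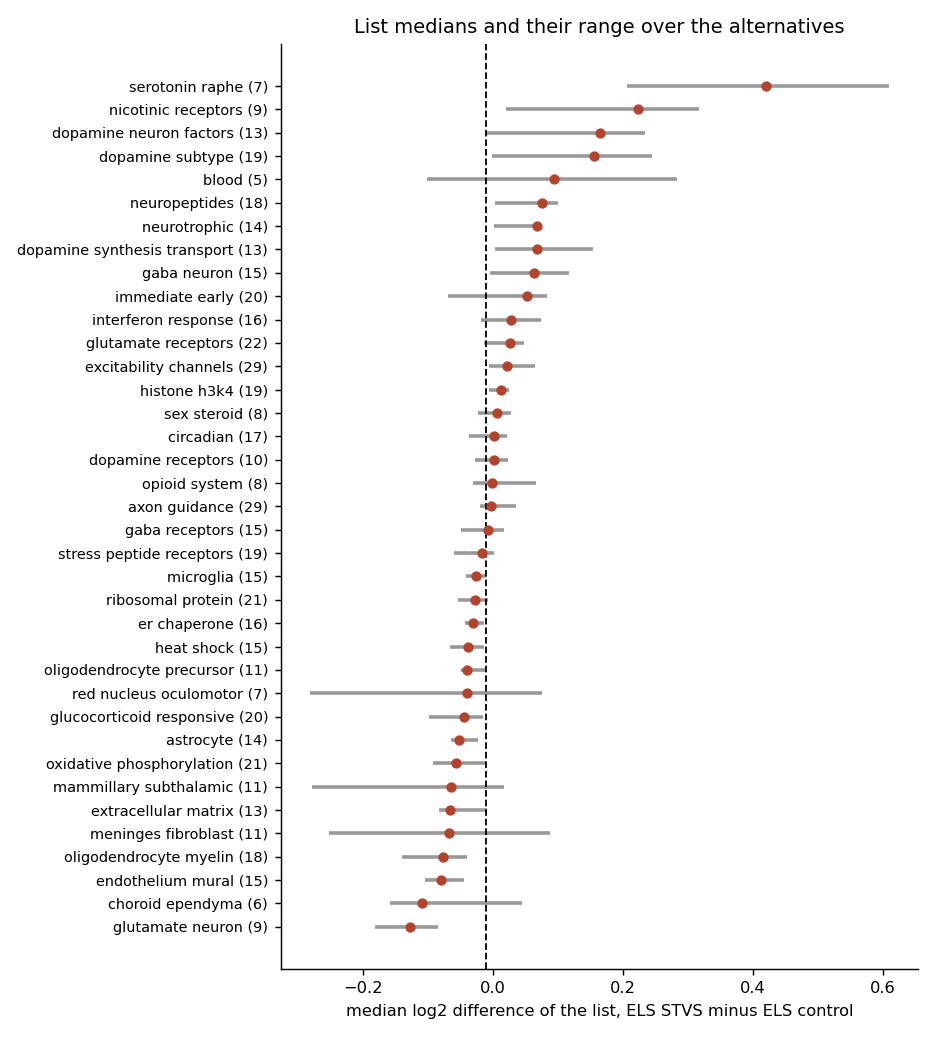
Median log2 difference, ELS STVS minus ELS control, of each gene list (red point; number of tested genes in brackets) and its range over the alternative settings (grey bar), with a dashed line at the median of all 14000 genes, -0.010. The serotonin list (bar 0.21 to 0.61) and the nicotinic receptor list lie farthest right, and glial, chaperone and respiratory lists lie just left of the line with short bars.

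Whether STVS acted differently after ELS than after standard rearing was tested with the interaction, the ELS STVS minus ELS control difference less the same difference in standard-reared females. No gene passed an adjusted p of 0.05 (0 of 14000, 0.0%; limma, lowest adjusted p = 0.99995), and edgeR and DESeq2 called 0. At an unadjusted p under 0.05 there were 332 genes (2.37%), 138 higher and 194 lower, with 313 by edgeR and 286 by DESeq2. By edgeR 65.2% of these genes were higher, by DESeq2 65.4% and by limma 41.6%. Leaving out ELS STVS 1 gave 653 genes, and leaving out the 3 libraries that stood apart gave 364, in both cases with 0 past the adjusted threshold. Within standard rearing, STVS against control gave 621 genes at an unadjusted p under 0.05 (4.44%) and 0 past the adjusted threshold. Over all genes the log2 differences of the 2 rearing histories, which share no library, had a Pearson correlation of 0.287 across genes, which are not independent replicates.

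The 5 higher and 5 lower genes of smallest interaction p had differences of opposite sign in the 2 rearing histories, values that chose them and are given as a description. Ybx2 had the largest interaction, 0.86 ± 0.23 (SE; limma with adjusted p = 0.99995), with a log2 difference of 0.46 ± 0.16 after ELS and -0.40 ± 0.16 after standard rearing. Its level was 31.5 to 55.8 (median 42.3) normalised reads in standard STVS libraries and 46.7 to 68.1 (median 52.1) in standard controls. Magohb, a paralogue of an exon junction complex subunit, lay between 73.3 and 103 normalised reads (median 79.6) in ELS STVS libraries, against 94.8, 112, 99.6, 85.5 and 92.7 in ELS controls, and at 83.8 to 104 (median 97.7) in standard STVS libraries, against 68.3 to 87.0 (median 82.1) in standard controls. Its log2 differences were -0.24 ± 0.10 after ELS and 0.25 ± 0.10 after standard rearing. Htr7, a serotonin receptor coupled to cyclic AMP, lay between 629 and 689.9 normalised reads (median 654) in ELS STVS libraries, against 619, 666, 739, 712 and 741 in ELS controls, a log2 difference of -0.077 ± 0.047, beside 0.14 ± 0.047 after standard rearing. In Magohb and Htr7 the ELS groups overlapped.

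The other genes of this selection were Atg2a, a lipid transfer protein of autophagosome growth (interaction 0.19 ± 0.055), Vasn (0.34 ± 0.10), Cchcr1 (0.44 ± 0.14) and Pfkfb4 (0.24 ± 0.077) among the higher, and Gosr1, a Golgi SNARE (-0.15 ± 0.044), Ripply2 (-0.58 ± 0.18) and Thumpd1 (-0.20 ± 0.060) among the lower. For Atg2a the difference after ELS was 0.022 ± 0.039, beside -0.17 ± 0.039 after standard rearing, and for Thumpd1 it was -0.017 ± 0.043, beside 0.18 ± 0.043. All 10 kept an unadjusted p under 0.05 in each of the 31 or 32 alternatives, and none passed the adjusted threshold. As the alternatives reuse the libraries that chose the 10, that stability is no separate support. Of the 524 list members, 5 had an unadjusted interaction p under 0.05 (0.954%, beside 2.37% of all genes), and none passed the adjusted threshold. Nfkbia, the glucocorticoid target described above, had an interaction of -0.37 ± 0.15, with 0.090 ± 0.10 after standard rearing. The other 4 were 3 of the 16 interferon-induced genes and Rps24, a ribosomal protein gene (-0.16 ± 0.072). Irf9 and Stat2, subunits of the factor that interferon activates, had interactions of 0.24 ± 0.096 and 0.16 ± 0.068, and Bst2, the antiviral protein tetherin, one of 0.40 ± 0.17. Their log2 differences were 0.10 ± 0.068, 0.081 ± 0.048 and 0.24 ± 0.12 after ELS, beside -0.14 ± 0.068, -0.082 ± 0.048 and -0.17 ± 0.12 after standard rearing. The interaction p chose these 3, so their opposite signs are description only. Over all 16 interferon-induced genes the median was 0.028 after ELS, with 9 higher and 7 lower, and -0.072 after standard rearing. Ifitm3 was lowest after ELS (-0.17).

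**Figure D5:**
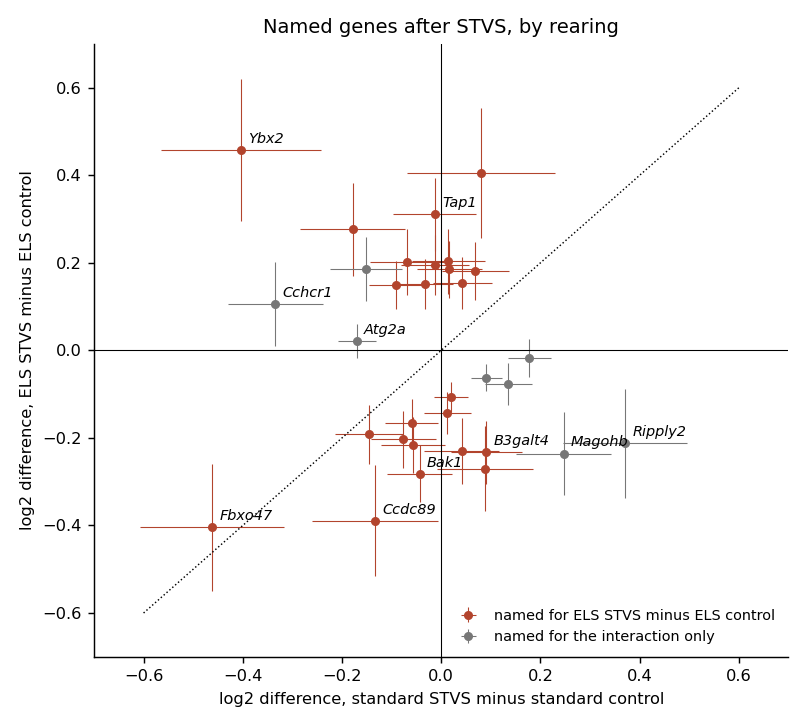
Log2 differences of the named genes after STVS, with standard rearing on the horizontal axis and ELS on the vertical axis; bars are 1 standard error and the dotted line marks equal differences. Genes named for ELS STVS against ELS control (red) lie away from 0 on the vertical axis, Fbxo47 lies at -0.46 on the horizontal one, and Ybx2 lies at 0.46 after ELS and -0.40 after standard rearing.

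The 24 genes of smallest p for ELS STVS against ELS control were then read in other libraries. The standard-reared VTA libraries had entered the same fit and its estimate of spread, while those of NAc and PFC had not. In standard-reared VTA 12 of the 24 had the same sign of difference between STVS and control libraries, and 3 had an unadjusted p under 0.05 (4.44% of all genes did), Ptgs1 and Fbxo47 with the same sign and Ybx2 with the opposite one. Bak1 differed by -0.043 ± 0.065 there, Tap1 by -0.013 ± 0.084 and Tlr3 by -0.076 ± 0.066, while Ptgs1 differed by -0.15 ± 0.068 and Fbxo47 by -0.46 ± 0.14. In the NAc of ELS females 13 of 22 measured genes had the same sign between ELS STVS and ELS control libraries, and in the PFC 15 of 21. An unadjusted p under 0.05 was reached in NAc by Tnip2 alone (0.19 ± 0.089, same sign; 2.2% of all genes in NAc) and in PFC by 0 of the 21 (3.25% of all genes in PFC). Bak1 differed by -0.050 ± 0.16 in NAc and 0.0013 ± 0.14 in PFC, and Tap1 by 0.092 ± 0.14 in NAc and -0.050 ± 0.15 in PFC. The labels do not say which libraries of VTA, NAc and PFC came from the same mouse.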

How the data were processed

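Poly-A RNA was sequenced with a TruSeq kit that does not keep strand, per the labels' protocols. The authors deposited a normalised signal, gene counts divided by 1 factor per library, and the submitters' processing notes name HISAT, HTSeq and build mm10 without versions. How the factors were computed is not stated there. The smallest value above 0 in each library was taken as the worth of a single read, and dividing by it returned whole reads for 100% of values above 0 (tolerance 0.001), between 19185904 and 41191492 a library over the 22 female VTA libraries. Each library is an individual mouse per the labels' design text, and all 25 pairs within the ELS groups differed by more than sampling noise (lowest chi-square per gene 5.25, genes with at least 10 reads on average).

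The table held 32421 genes, 27164 with a symbol. Groups came from the labels. The 14000 genes of highest mean (lowest 40.3 normalised reads) entered limma 3.58.1 under R 4.3.3, with its trend and robust options, as log2(value + 1) of all 22 libraries with 1 coefficient per group, after a test on simulated data. Fold changes are on that scale, which understates changes of low genes. Adjusted p-values are Benjamini-Hochberg over 14000 genes. Single values were tested by exact permutation. Named genes were the 12 higher and 12 lower of smallest p with a symbol that is not a predicted-gene name, the 5 higher and 5 lower of smallest interaction p, list members past an unadjusted p of 0.05 and up to 4 of highest mean per list, and Xist, Ddx3y, Slc6a3, Th and Ttr as checks; Slc17a7, Ucn and Cartpt were added after their values were seen, and some genes that the rule names are not reported here. Alternatives were edgeR 4.0.16 and DESeq2 1.42.0 on the recovered whole-read counts, no filter, a mean of at least 100, log2(value + 10), quantile normalisation, the replicate number as a block, 2 surrogate variables (sva 3.50.0), the 11 ELS libraries alone, and libraries left out. The members and lists were chosen with earlier results of these data known. List symbols absent from the table were matched through RefSeq synonyms (GRCm38.p6).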

Additional observations from a re-analysis of the deposited data

Results flagged for a closer look

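Among 80 sets of values, each a measure printed above in 1 of the 2 ELS groups, 8 held a library set far from the rest of its group by Dixon's gap ratio (10% of sets). Chance alone sets apart about 5% of such groups, but Slc17a7 and Ucn were included with their values known, so the 2 shares are not comparable. Ddx3y in ELS control 1 (29.2 normalised reads, gap ratio 0.906) and Slc17a7 in ELS control 1 (1338, 0.859) stood above the other 4 ELS controls. Tph2 (8279, 0.882) and Penk (3017, 0.765) stood high in ELS control 4, and Slc18a2 stood low in ELS control 3 (7257, 0.737). In ELS STVS, Ttr stood high in library 2 (1057, 0.84), Jun in library 1 (1284, 0.761) and Magohb in library 4 (103, 0.639), the shallowest library. The Y-linked genes Uty (10.9 normalised reads), Kdm5d (15.5) and Eif2s3y (17.3) and the cortical factor Tbr1 (92.1), named after their values were seen, were also highest in ELS control 1. Without ELS control 1 there were 149 genes at an unadjusted p under 0.05 and 0 past the adjusted threshold.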

How the results depend on the processing

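For ELS STVS against ELS control, 0 genes passed the adjusted threshold under every alternative but 1, and for the interaction under every alternative. Without a filter on low values 1 gene passed in ELS STVS against ELS control (adjusted p = 0.0349, limma), the unnamed ENSMUSG00000098263.1 with 0 reads in every ELS STVS library and 1 to 2 reads in every ELS control. At an unadjusted p under 0.05 the counts without a filter were 852 for ELS STVS against ELS control and 975 for the interaction, over 30106 genes in place of 14000. With 2 surrogate variables they were 284 and 617. Leaving out 1 library at a time gave 135 to 647 genes for ELS STVS against ELS control and 242 to 653 for the interaction, both highest without ELS STVS 1, and 282 for ELS STVS against ELS control without ELS control 3; the cause was not tested. The replicate block gave 272 and 260 with 0 past the adjusted threshold. Same-numbered libraries of the 2 ELS groups had residual correlations of 0.495, -0.42, 0.157, -0.068 and 0.168, and not every library correlated best with its own number. These correlations cannot show whether same-numbered libraries were handled together, and what such libraries share was not tested. Depth limits low genes most, since the shallowest library, ELS STVS 4, held 19185904 reads. Of 1915 recomputed values, 80 had the opposite sign to the value reported: 78 were medians of gene lists, 1 was the difference of mean Slc6a3 (-324.5 normalised reads without ELS control 3, against 3866 with it) and 1 the difference of mean depth without ELS STVS 4. None of these had passed a test, and no named gene's log2 difference changed sign.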

Other observations

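Some genes of neighbouring nuclei, picked after their values were seen, varied widely between libraries of both groups. Slc17a8, the vesicular glutamate transporter of some raphe and hypothalamic neurons, lay between 75.3 and 1586 normalised reads (median 694) in ELS STVS libraries, against 69.3, 115, 304, 1746 and 136 in ELS controls. Chrna2, a nicotinic receptor subunit, lay between 29.4 and 1247 normalised reads (median 547) in ELS STVS libraries, against 10.9, 78.7, 418, 1074 and 169 in ELS controls. Foxb1, a mammillary factor, lay between 39.2 and 360.1 normalised reads (median 58.2) in ELS STVS libraries, against 59.0 to 687 in ELS controls. High libraries occurred in both groups for all 3 genes, ELS STVS 2 and 3 and ELS control 4 being highest for Slc17a8 and Chrna2 and ELS control 3, ELS STVS 5 and ELS control 4 for Foxb1. Cartpt, a peptide shared by several of these nuclei, lay between 438 and 6639.9 normalised reads (median 2165) in ELS STVS libraries, against 9365, 332, 617, 271 and 4551 in ELS controls, and was highest in ELS control 1 and ELS STVS 4, the libraries of high Ucn.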
